A study of Bos taurus with 12 samples.

Results

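Steroidogenic enzymes are described here as 10 genes: STAR, CYP11A1, FDX1, FDXR, HSD3B1, CYP17A1, POR, HSD17B1, CYP19A1 and HSD11B2. Members were chosen by symbol, as every probe whose gene symbol in the array's annotation is one of the 10. That gave 9 genes with 13 probes out of 15216 genes and 43794 probes on the array. A filter on dim signals kept 12 of the 13 probes, at least 1 for each of the 9 genes. No probe of the annotation carries the symbol FDXR, and that gene was not analysed here.

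RNA came from bovine cumulus cells, the somatic cells around the oocyte, taken from the ovaries of slaughtered cattle. The groups follow how condensed the chromatin was in the germinal vesicle, the nucleus of the oocyte that the cells had surrounded, from GV0, with the least condensed chromatin, to GV3, with the most condensed. GV1, GV2 and GV3 had 4 arrays each, 12 in all, with their RNA in Cy5 and GV0 RNA in Cy3, and the replicate number of an array is its area number on the slide. The cells of 10 complexes of the same stage were pooled for each RNA sample, the RNA was amplified, and neither age, breed nor follicle size is given in the labels.

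Steroid hormones are made from cholesterol, which has to be moved into mitochondria before its side chain is cleaved to give pregnenolone. In the follicle, theca cells turn such precursors into androgens, and granulosa cells, the lineage to which cumulus cells belong, turn androgens into oestrogens and later make progesterone. Within the cumulus the oocyte restrains part of this activity, and cells of the granulosa lineage take on progesterone synthesis when they luteinise.

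Array medians of the spot signal ran from 132 to 230 (Cy5) and from 277 to 373 (Cy3). Of all probes, 59.9% to 83.6% lay above the negative control spots in Cy5 and 65.8% to 79.5% in Cy3. The 15 cumulus and granulosa markers were all measured, and FSHR, AMH, FOXL2 and INHA were above background on 12 of 12 arrays in both channels. AMHR2 was above background on 9 of 12 arrays in each channel, and SLC38A3 on 10 of 12 in Cy5. GATM was below its GV0 level in all 3 stages, at log2 ratios of -1.64, -2.25 and -1.70 (limma, adjusted p = 0.0159, 0.00358 and 0.0117). INHA was higher in GV2, at 0.86 (limma, adjusted p = 0.0314), and no other marker of the 15 passed that test. The Cy3 signals were read as 4 GV0 pools, each used on the 3 slides in the same area, so every comparison with GV0 shares these 4 pools. This reading rests on the correlations of the Cy3 signals, and the labels do not state it. One array stood apart in another list: the summed Cy5 signal of 14 theca and stroma markers was 65942 on GV1 replicate 3, against 12256 to 20571 on the other 11 arrays. A further difference between areas lay in the summed Cy3 signal of 6 luteinised granulosa markers outside the members. Their summed signal was 14954 to 16724 in area 1 and 2815 to 4988 in the other areas. The log2 ratio of 1 of them, VNN2, was -3.74 to -2.62 in area 1. The ratios of the others (PTGFR, OXT, SCARB1, RGN and PLA2G1B) lay between -0.77 and 0.61 there. The sum therefore does not show a difference shared by the 6 markers. Of 7 leukocyte markers 4 were higher than GV0 in GV1, 1 in GV2 and 2 in GV3 (limma, adjusted p under 0.05). None was lower, and 3.85%, 4.67% and 4.36% of all genes were higher. CD68 passed in all 3 stages, CD3E in GV1 and GV3, and FCER1G and BOLA-DRA in GV1. BOLA-DRA was above background in Cy3 on 1 of 12 arrays. PTPRC and AIF1 measured below 0 in each stage, with PTPRC at -0.50 in GV1 and AIF1 at -0.46 in GV3. With the area number as a block in the fit PTPRC was lower in GV1 (limma, adjusted p = 0.00726).

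Few of the 9 measured genes passed the test against GV0. In GV1 cells CYP17A1 and HSD11B2 were lower, which made 0 genes that rose and 2 that fell. In GV2 cells HSD3B1 was 1.74-fold higher and CYP17A1 was 0.81 times its GV0 level. In GV3 cells FDX1 was 1.63-fold higher and no member fell. Changes are given as log2 ratios (stage over GV0) from a limma fit over all probes, with the standard error (SE) over n = 4 arrays, and a gene passed at an adjusted p under 0.05.

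Of all 13418 genes tested, 9.63% passed in GV1 against GV0 (3.85% higher, 5.78% lower), 10.5% in GV2 (4.67% higher, 5.84% lower) and 11.1% in GV3 (4.36% higher, 6.78% lower). With 9 members, the 2, 2 and 1 calls stand beside these shares without a test, and nothing is read from them about the members as a group. The median log2 ratio of the 9 genes was 0.04 in GV1, -0.09 in GV2 and 0.07 in GV3, beside 0.00, 0.00 and -0.01 for all genes. With the area number as a block, 2 members rose and 2 fell in GV1, 2 rose and 1 fell in GV2, and 2 rose and 1 fell in GV3, where 30.1%, 30.0% and 31.1% of all genes passed. Between stages 0 of 9 members and 0% of all genes passed in limma for GV2 minus GV1, GV3 minus GV1 and GV3 minus GV2. At an unadjusted p under 0.05 there were 127, 271 and 369 of 13418 genes in those 3 differences (0.946%, 2.02% and 2.75%).

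**Figure D1:**
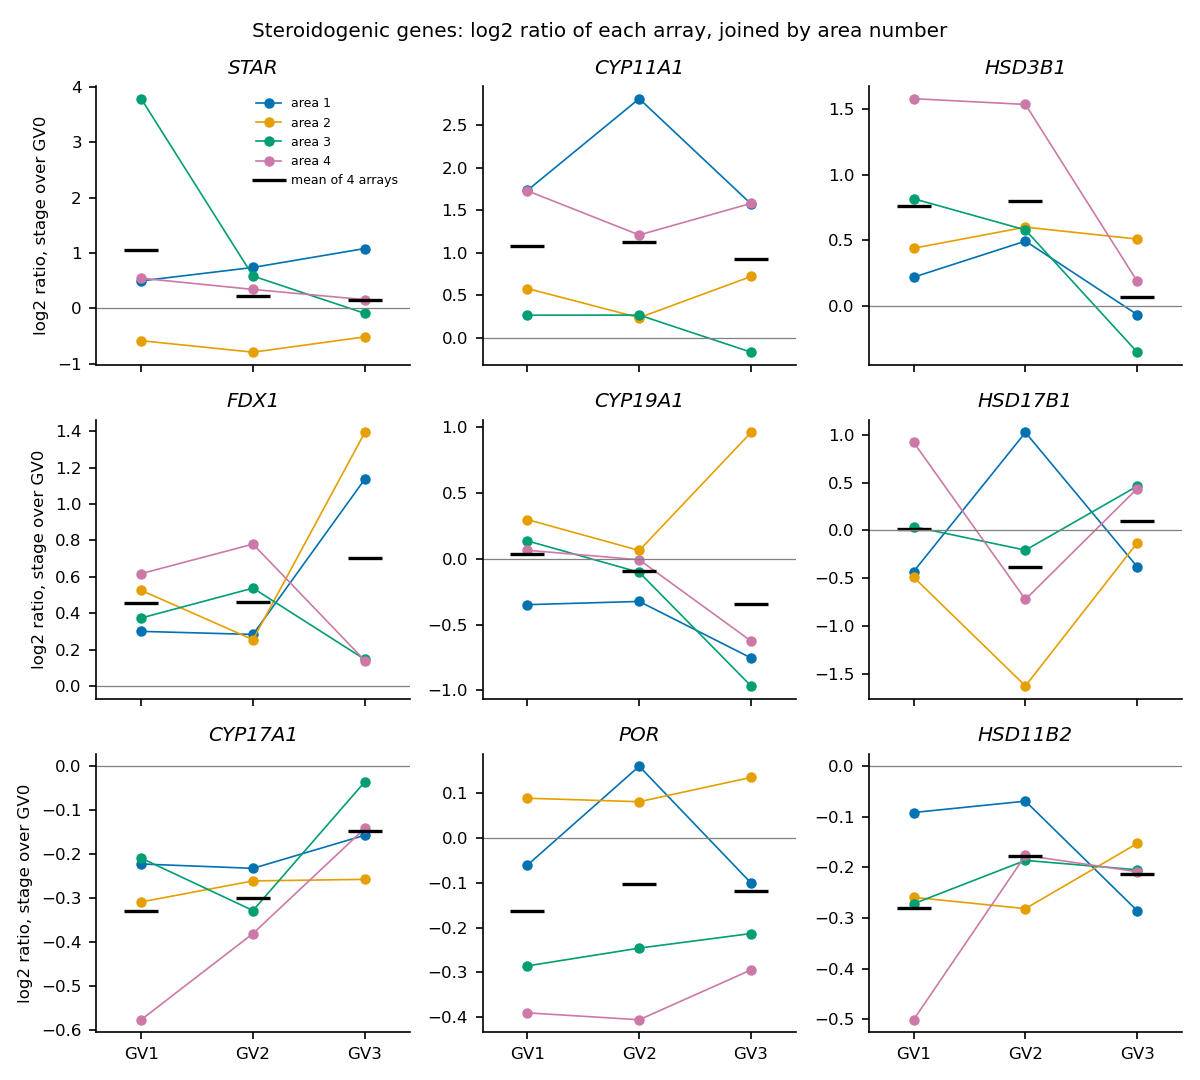
Log2 ratio of stage over GV0 (vertical axis, a scale for each gene) on each array for the 9 measured genes, by stage (horizontal axis); lines join arrays of the same area and thick bars are means of 4 arrays. CYP17A1 and HSD11B2 lie below 0 on all 12 arrays, FDX1 lies above 0 on all 12, and GV1 replicate 3 stands apart at 3.79 for STAR.

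STAR encodes the steroidogenic acute regulatory protein, which carries cholesterol to the inner mitochondrial membrane a step that limits the rate of acute steroid output. Its brightest probe (EMBV3_03849) gave log2 ratios of 0.50, -0.59, 3.79 and 0.54 on GV1 replicates 1 to 4. The values were 0.74, -0.79, 0.58 and 0.34 on the GV2 arrays, and 1.08, -0.52, -0.09 and 0.16 on the GV3 arrays. GV1 replicate 3 lay far above all others, and replicate 2 was below 0 in each stage. The mean change was 1.06 in GV1 (SE 0.56, adjusted p = 0.244), 0.22 in GV2 (adjusted p = 0.843) and 0.16 in GV3 (adjusted p = 0.888), and none passed. Without GV1 replicate 3 the GV1 value was 0.15. GV0 pools 1 to 4 had STAR levels of 7.14, 8.59, 7.83 and 7.35 on the normalised log2 signal scale, so pool 2 was the highest. The mean level was 7.73 ± 0.64 in GV0, 8.79 ± 1.93 in GV1, 7.97 ± 0.32 in GV2 and 7.86 ± 0.30 in GV3 (SD, n = 4 pools), which overlap.

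A second STAR probe (EMBV3_20036) read 4.44 on GV1 replicate 3 and between -1.25 and 0.93 on the other 11 arrays. Its Cy3 signal was above background on 3 of 12 arrays. The third probe (EMBV3_18125) did not pass the filter, was above background in Cy5 on 1 of 12 arrays, and read 0.92 on that array, GV1 replicate 3. Across the 12 arrays the 3 probes correlated with each other at 0.96 to 0.98. The high value was therefore seen by 3 different probes of the gene.

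On the same array 5 of 14 theca and stroma markers (COL1A2, COL3A1, PDGFRA, LUM and DCN) were higher than on any of the other 11 arrays. COL1A2, which encodes a chain of type I collagen, read 7.16 on GV1 replicate 3 and -0.70 to -0.09 on the others. COL3A1, which encodes type III collagen, read 6.67 there and -0.34 to 0.36 on the others. The mean log2 ratio over 14 theca and stroma markers was 1.62 on this array and -0.28 to 0.44 on the rest, with COL1A2 and COL3A1 as the highest of the 14. The other 9 of the 14 lay within the range of the other arrays, among them NR2F2 (-0.43), MYH11 (-0.55), PTCH1 (0.08), TCF21 (0.29) and INSL3 (-0.07). CYP17A1, which like INSL3 marks hormone-producing theca cells, read -0.21. Whether other cells were present in this pool, and any part of theirs in the STAR value, was not tested, and in pools of cells a change in cell make-up and a change in RNA per cell cannot be told apart.

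**Figure D2:**
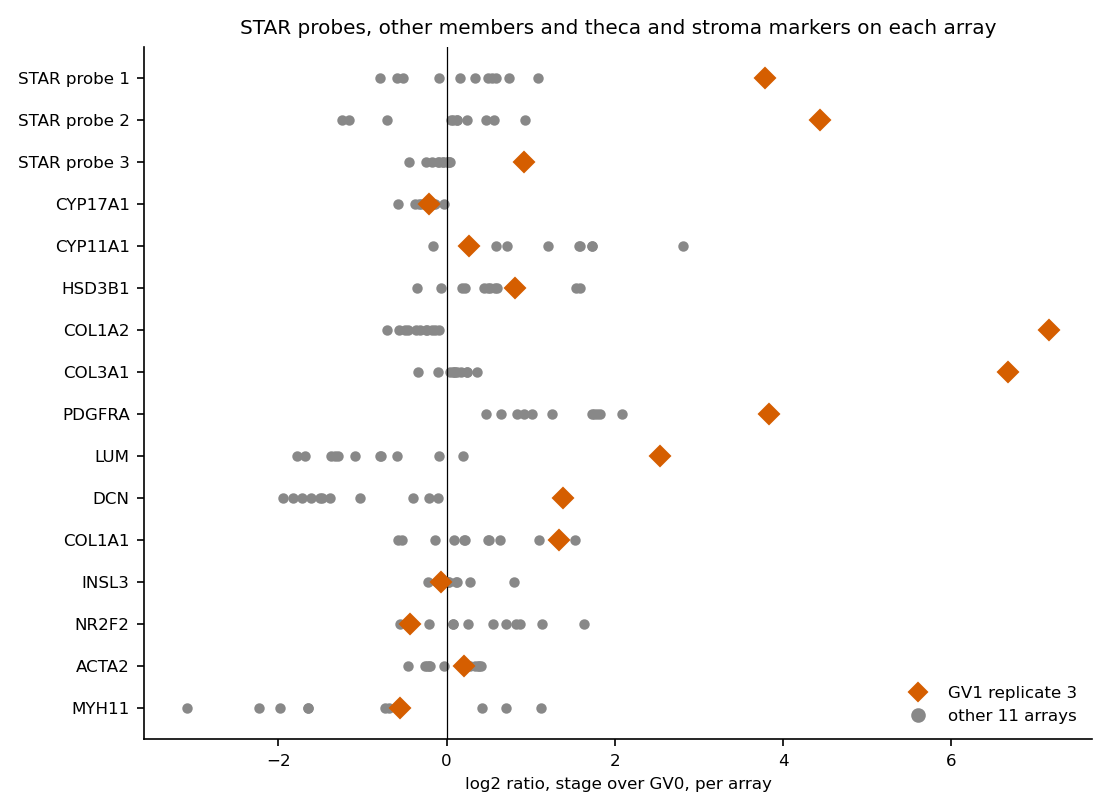
Log2 ratio of stage over GV0 (horizontal axis) on each array for the 3 STAR probes, 3 other members and 10 theca and stroma markers; diamonds mark GV1 replicate 3 and dots the other 11 arrays. On GV1 replicate 3 the STAR probes read 3.79, 4.44 and 0.92 and COL1A2 reads 7.16, while CYP17A1 and INSL3 lie among the other arrays.

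CYP11A1 is the mitochondrial side-chain cleavage enzyme, which makes pregnenolone from cholesterol. Its probe (EMBV3_31025) gave log2 ratios of 1.73, 0.58, 0.27 and 1.73 on GV1 replicates 1 to 4, 2.81, 0.24, 0.27 and 1.21 on the GV2 arrays, and 1.57, 0.72, -0.17 and 1.58 on the GV3 arrays. Replicates 1 and 4 were the highest pair in every stage, and GV3 replicate 3 was the 1 of 12 arrays below 0. Mean changes were 1.08 in GV1 (95% interval 0.12 to 2.04, adjusted p = 0.135), 1.13 in GV2 (0.17 to 2.09, adjusted p = 0.118) and 0.93 in GV3 (-0.03 to 1.89, adjusted p = 0.190). These are changes of 1.90-fold to 2.19-fold, and none passed the test.

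The spread of CYP11A1 followed the area number. The area accounted for 84.4% of the sum of squares of its ratios and the stage for 1.08%, where the median probe had 54.2% for the area. With the area number as a block the same estimates passed in all 3 stages, at adjusted p = 0.00442 in GV1, 0.00336 in GV2 and 0.00708 in GV3. That block takes out of the error all spread that arrays of an area share, in either channel. With the area as a random effect CYP11A1 did not pass in any stage (adjusted p = 0.0838, 0.0696 and 0.122). Over the alternatives tried the adjusted p of CYP11A1 ran from 0.00442 to 0.418 in GV1.

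Both channels bear on this pattern. GV0 pools 1 to 4 had CYP11A1 levels of 10.51, 10.37, 11.01 and 9.59 on the normalised log2 signal scale, each a mean over 3 slides with an SD of at most 0.09. Pool 4 was the lowest, by more than the spread between slides. In Cy5 replicate 1 was the highest of every stage, with 12.25 in GV1, 13.29 in GV2 and 12.09 in GV3. The mean level was 10.37 ± 0.59 in GV0, 11.46 ± 0.56 in GV1, 11.50 ± 1.22 in GV2 and 11.28 ± 0.57 in GV3 (SD, n = 4 pools). GV1, GV2 and GV3 lay within each other's spread.

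FDX1 encodes ferredoxin, the small iron-sulphur protein that passes electrons from ferredoxin reductase to CYP11A1. Its probe (EMBV3_20721) gave log2 ratios of 0.30, 0.53, 0.37 and 0.62 on GV1 replicates 1 to 4 and 0.28, 0.25, 0.54 and 0.78 on the GV2 arrays. On the GV3 arrays the values were 1.14, 1.39, 0.15 and 0.14. All 12 were above 0, and the GV3 arrays fell into 2 high and 2 low ones. FDX1 rose in GV3 by 0.70 (SE 0.19, adjusted p = 0.0372). It measured 0.45 in GV1 (SE 0.19, adjusted p = 0.151) and 0.46 in GV2 (adjusted p = 0.143), which did not pass.

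The FDX1 call in GV3 rested on replicates 1 and 2. Without GV3 replicate 1 the change was 0.56 (adjusted p = 0.137), and without GV3 replicate 2 it was 0.47 (adjusted p = 0.150). With the area as a random effect the adjusted p was 0.0852, and the call was lost in 10 of 20 alternatives, whose adjusted p ran from 0.0269 to 0.208. GV0 pools were close to each other, at 10.23, 10.31, 10.58 and 10.35, so the spread lay mainly in Cy5. Levels averaged 10.37 ± 0.15 in GV0, 10.83 ± 0.19 in GV1, 10.83 ± 0.34 in GV2 and 11.06 ± 0.56 in GV3 (SD, n = 4 pools).

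HSD3B1 turns pregnenolone into progesterone. Its probe (EMBV3_35958) gave log2 ratios of 0.22, 0.44, 0.82 and 1.58 on GV1 replicates 1 to 4, 0.49, 0.60, 0.58 and 1.54 on the GV2 arrays, and -0.07, 0.51, -0.35 and 0.19 on the GV3 arrays. Every GV1 and GV2 array was above 0 and replicate 4 was the highest of both stages, while 2 of 4 GV3 arrays were below 0. HSD3B1 rose in GV2 by 0.80 (SE 0.23, adjusted p = 0.0440). It measured 0.76 in GV1 (SE 0.23, adjusted p = 0.0544) and 0.07 in GV3 (SE 0.23, adjusted p = 0.875).

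Leaving out any 1 of the 4 GV2 arrays ended the HSD3B1 call, with adjusted p between 0.0696 and 0.191. The estimate was 0.56 without GV2 replicate 4 and 0.87 to 0.91 without one of the others. With the area number as a block the GV1 value passed as well (adjusted p = 0.00859). Over the alternatives the adjusted p ran from 0.00859 to 0.232 in GV1 and from 0.00668 to 0.191 in GV2.

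The difference of HSD3B1 between GV3 and GV2 was the one among the members with an unadjusted p under 0.05. By area number it was -0.56, -0.09, -0.93 and -1.35, lower in GV3 in 4 of 4 areas. The estimate was -0.73 (95% interval -1.44 to -0.02, adjusted p = 1.00), and with the area block the adjusted p was 0.384. For GV3 minus GV1 it was -0.69 (95% interval -1.40 to 0.02, adjusted p = 1.00), lower in 3 of 4 areas. Neither passed over all probes.

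Channel levels of HSD3B1 averaged 9.90 ± 0.51 in GV0, 10.68 ± 0.39 in GV1, 10.65 ± 0.17 in GV2 and 10.01 ± 0.48 in GV3 (SD, n = 4 pools). GV3 lay within the GV0 spread. GV0 pools 1 to 4 read 10.22, 9.87, 10.33 and 9.19, and their order from pool 4 up to pool 3 was that of CYP11A1 as well. For both genes pool 4 was the lowest and its ratio high in GV1 and GV2. The SD over the 4 GV0 pools was larger for HSD3B1 than for 90.8% of kept probes, larger for CYP11A1 than for 93.6%, and larger for STAR than for 94.8%.

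**Figure D3:**
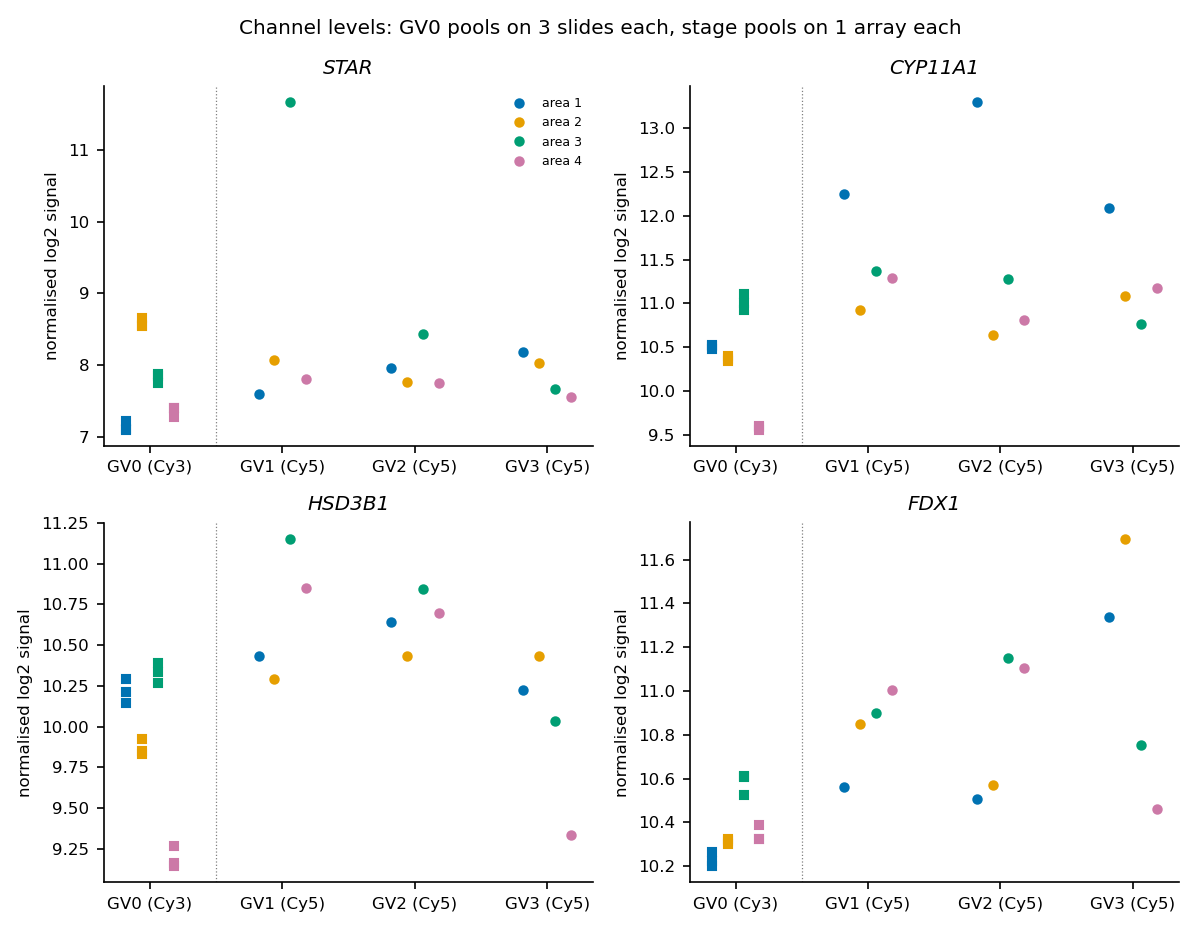
Normalised log2 signal (vertical axis) of STAR, CYP11A1, HSD3B1 and FDX1 in the 4 GV0 pools (Cy3, squares, 1 for each of 3 slides) and in the GV1, GV2 and GV3 pools (Cy5, dots), coloured by area number. GV0 pool 4 is the lowest for CYP11A1 and HSD3B1, pool 2 is the highest for STAR at 8.59, and repeat slides of a pool lie close together.

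CYP17A1, the enzyme of androgen synthesis that marks theca cells, was dim. Its probe (EMBV3_42627) gave log2 ratios of -0.22, -0.31, -0.21 and -0.58 on GV1 replicates 1 to 4, -0.23, -0.26, -0.33 and -0.38 on the GV2 arrays, and -0.16, -0.26, -0.04 and -0.14 on the GV3 arrays. All 12 were below 0, and GV1 replicate 4 was the lowest. CYP17A1 fell by 0.33 on the log2 scale in GV1 (SE 0.07, adjusted p = 0.0123) and by 0.30 in GV2 (SE 0.07, adjusted p = 0.0168). In GV3 it measured -0.15 (adjusted p = 0.172). Its Cy5 signal was above background on 2 of 4 GV1 arrays, 4 of 4 GV2 arrays and 1 of 4 GV3 arrays, and its Cy3 signal on 11 of 12 arrays. Levels averaged 7.22 ± 0.11 in GV0, 6.89 ± 0.10 in GV1, 7.00 ± 0.11 in GV2 and 7.00 ± 0.14 in GV3 (SD, n = 4 pools), with the 3 later stages within each other's spread.

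POR encodes the reductase that feeds electrons to CYP17A1, CYP19A1 and other microsomal cytochromes. Its probe (EMBV3_21121) gave log2 ratios of -0.06, 0.09, -0.29 and -0.39 on GV1 replicates 1 to 4, 0.16, 0.08, -0.25 and -0.41 on the GV2 arrays, and -0.10, 0.14, -0.21 and -0.29 on the GV3 arrays. Replicate 2 was above 0 and replicates 3 and 4 below 0 in every stage. Mean changes of -0.16, -0.10 and -0.12 did not pass (adjusted p = 0.374, 0.593 and 0.527), and the area accounted for 89.1% of the spread. Levels averaged 7.64 ± 0.20 in GV0, 7.43 ± 0.11 in GV1, 7.53 ± 0.22 in GV2 and 7.56 ± 0.09 in GV3 (SD, n = 4 pools), which overlap.

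HSD11B2 inactivates cortisol to cortisone. Its probe (EMBV3_38835) gave log2 ratios of -0.09, -0.26, -0.27 and -0.50 on GV1 replicates 1 to 4, -0.07, -0.28, -0.19 and -0.18 on the GV2 arrays, and -0.29, -0.15, -0.20 and -0.21 on the GV3 arrays. Like CYP17A1 it was below 0 on 12 of 12 arrays. HSD11B2 fell in GV1 by 0.28 on the log2 scale (SE 0.06, adjusted p = 0.0213). It measured -0.18 in GV2 (adjusted p = 0.100) and -0.21 in GV3 (adjusted p = 0.0553, 0.0343 with the area block). The Cy5 signal was above background on 2, 1 and 1 of 4 arrays in GV1, GV2 and GV3, and the Cy3 signal on 11 of 12. The probe thus passed the filter only through the GV0 channel, where its level was higher. The direction of the HSD11B2 call is therefore not independent of the filter. Levels averaged 7.14 ± 0.08 in GV0, 6.90 ± 0.11 in GV1, 6.90 ± 0.12 in GV2 and 6.94 ± 0.18 in GV3 (SD, n = 4 pools).

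Both genes lie close to the floor of the Cy5 channel, where ratios had an offset of their own. The negative control spots, which should bind no RNA, had median log2 ratios between -0.14 and -0.04 per array. They also spread widely: 95% of them lay above a value that ran from -0.41 to -0.24 per array. In GV1 the mean ratios were -0.33 for CYP17A1 and -0.28 for HSD11B2. Among 3806 genes with a Cy5 signal below background on at least 1 array, 9.25% were called lower in GV1, 9.38% in GV2 and 9.25% in GV3. Over all genes those shares were 5.78%, 5.84% and 6.78%. The part of this offset in the CYP17A1 and HSD11B2 calls was not tested. With flagged spots kept in, the GV1 values were -0.19 for CYP17A1 (adjusted p = 0.177) and -0.17 for HSD11B2 (adjusted p = 0.195).

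The CYP17A1 call held in 10 of 19 alternatives in GV1, with adjusted p from 0.00292 to 0.601, and in 7 of 19 in GV2, with adjusted p from 0.00626 to 0.266. For HSD11B2 the GV1 call held in 8 of 19, with adjusted p from 0.0118 to 0.448. Leaving out GV1 replicate 4 ended both GV1 calls, at -0.25 (adjusted p = 0.0555) for CYP17A1 and -0.21 (adjusted p = 0.101) for HSD11B2. The HSD11B2 call also ended without GV1 replicate 2 (adjusted p = 0.0674) or GV1 replicate 3 (adjusted p = 0.0683). The GV2 call of CYP17A1 ended without GV2 replicate 2, 3 or 4, at adjusted p = 0.0502, 0.0520 and 0.0780.

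CYP19A1 is aromatase, which makes oestrogens from androgens and defines oestrogen-producing granulosa cells. Its brightest probe (EMBV3_07330) gave log2 ratios of -0.35, 0.30, 0.14 and 0.07 on GV1 replicates 1 to 4, -0.32, 0.06, -0.10 and -0.01 on the GV2 arrays, and -0.75, 0.96, -0.97 and -0.62 on the GV3 arrays. GV1 and GV2 values lay around 0, and in GV3 replicate 2 was high while the other 3 were below every GV1 and GV2 array. Mean changes were 0.04 in GV1 (SE 0.25, adjusted p = 0.942), -0.09 in GV2 (adjusted p = 0.853) and -0.35 in GV3 (adjusted p = 0.401). Without GV3 replicate 2 the GV3 value was -0.78 (SE 0.12, adjusted p = 0.00849), where the alternatives ran from 0.00849 to 0.830. Levels averaged 9.31 ± 0.30 in GV0, 9.36 ± 0.16 in GV1, 9.18 ± 0.23 in GV2 and 8.97 ± 0.60 in GV3 (SD, n = 4 pools), which overlap.

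The other kept CYP19A1 probes did not show this pattern. EMBV3_36093 read 0.64, 0.54, -1.08 and -0.43 on the GV3 arrays, with replicates 1 and 2 high and replicates 3 and 4 low in every stage. The third probe (EMBV3_08064) read 0.27, 0.30, -0.35 and -0.01 on the GV3 arrays. The 3 probes correlated at 0.23 to 0.36 across the 12 arrays, so a single direction for CYP19A1 in GV3 cannot be given. The 2 other probes were dim, with mean log2 signals of 7.33 (EMBV3_36093) and 7.07 (EMBV3_08064) against 9.24 for the brightest. Negative control spots had medians of 6.46 to 6.73 per array. The part of this low signal in the disagreement was not tested. None of the 3 passed the test in any stage.

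HSD17B1 converts oestrone to oestradiol, the last step of oestrogen synthesis in granulosa cells. Its probe (EMBV3_00423) gave log2 ratios of -0.43, -0.49, 0.04 and 0.92 on GV1 replicates 1 to 4, 1.02, -1.62, -0.21 and -0.72 on the GV2 arrays, and -0.38, -0.13, 0.46 and 0.44 on the GV3 arrays. Values crossed 0 in every stage, most widely in GV2. The changes of 0.01, -0.38 and 0.10 had an SE of 0.36 each and did not pass (adjusted p = 0.988, 0.533 and 0.890). The 95% interval in GV2 was -1.16 to 0.40. Levels averaged 11.71 ± 0.25 in GV0, 11.77 ± 0.40 in GV1, 11.28 ± 1.16 in GV2 and 11.82 ± 0.27 in GV3 (SD, n = 4 pools), and no groups next to each other in level differed beyond their spread.

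**Figure D4:**
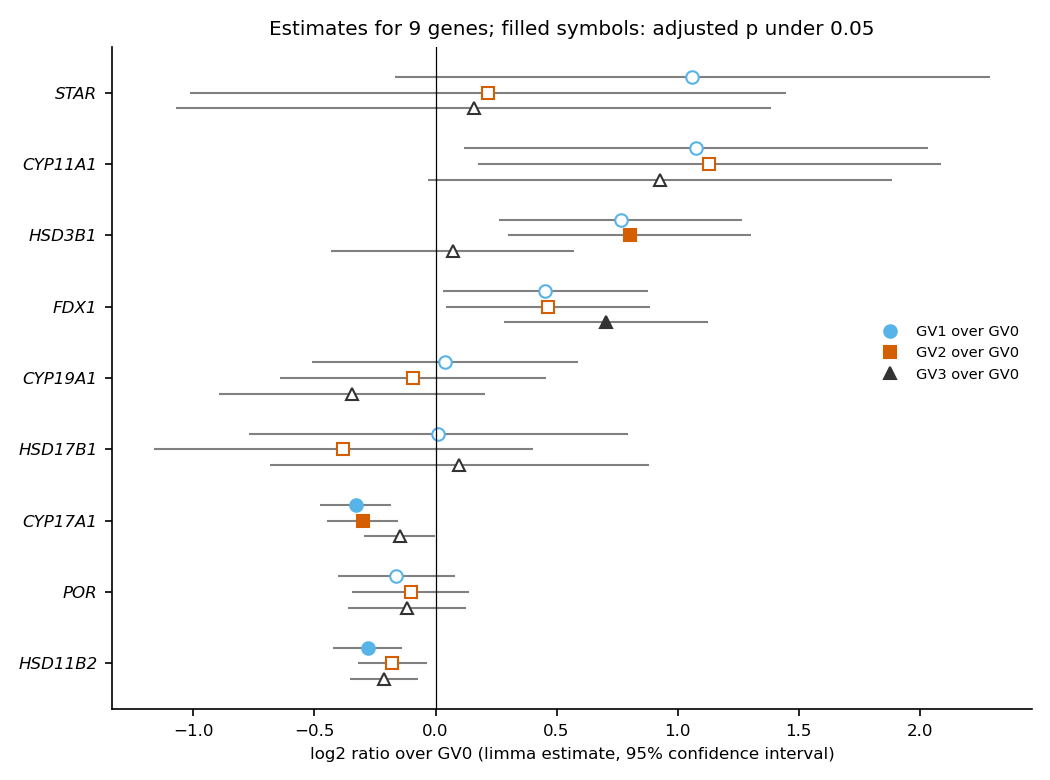
Estimated log2 ratio over GV0 with its 95% confidence interval (horizontal axis) for the 9 genes in GV1, GV2 and GV3, in 1 limma model over 12 arrays; filled symbols passed at an adjusted p under 0.05. Filled symbols are CYP17A1 in GV1 and GV2, HSD11B2 in GV1, HSD3B1 in GV2 and FDX1 in GV3, and the intervals of STAR and CYP11A1 are the widest.

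Over all 12 arrays most pairs of members had a weak correlation of their log2 ratios. HSD3B1 and CYP17A1 had the strongest correlation among the 36 pairs of log2 ratios, at -0.89 over the 12 arrays. That pair was singled out after its value was seen, and CYP17A1 was dim, above background in Cy5 on 7 of 12 arrays. STAR correlated at 0.05 with CYP11A1 and at 0.15 with HSD3B1, the genes that follow it in progesterone synthesis. Both values include GV1 replicate 3, where STAR read 3.79, CYP11A1 0.27 and HSD3B1 0.82. They were not computed without that array, so they do not show that STAR varied apart from these genes on the others. These coefficients describe 12 arrays that share 4 GV0 pools and are not independent points.

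The genes whose log2 ratios co-varied most with a member's over the 12 arrays were taken from 13338 genes by Pearson's r, which compares the pattern over arrays and not the level of the ratios. STAR co-varied most with SYTL2 (r = 0.96), EPB41L3 (0.92) and SPARC (0.92), and without GV1 replicate 3 these were 0.92, 0.74 and 0.73. For CYP11A1 they were LAMB2 (0.94), STOML1 (0.94) and HSPB1 (0.94). Mean ratios of STOML1 were -0.57, -0.56 and -0.71 in GV1, GV2 and GV3 and those of HSPB1 -0.36, -0.30 and -0.53, below 0 where those of CYP11A1 were above it, and none passed. For HSD3B1 they were UBE2C (0.95), PTTG1 (0.93) and CCNB1 (0.93). UBE2C fell by 0.76 in GV1, 0.74 in GV2 and 1.40 in GV3 (adjusted p = 0.0286, 0.0296 and 0.00165), and PTTG1 fell by 0.70, 0.65 and 1.26 (adjusted p = 0.0377, 0.0461 and 0.00267), so their mean ratios lay on the other side of 0 from those of HSD3B1. CCNB1, the cyclin of mitotic entry, fell in GV3 (adjusted p = 0.0151). For CYP19A1 the genes were ECT2 (0.94), PBK (0.90) and CDCA8 (0.89), none of which passed.

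Of 36 other enzymes and carriers of steroid metabolism 29 were measured, and in each stage 1 rose and 2 fell. With the area block 1, 2 and 1 rose and 8 fell in each stage. Over all genes 3.85%, 4.67% and 4.36% rose and 5.78%, 5.84% and 6.78% fell in GV1, GV2 and GV3. With the block 14.9%, 15.8% and 14.9% of all genes rose and 15.2%, 14.2% and 16.2% fell. The counts were not tested against these shares. HSD3B7, which acts in bile acid synthesis, rose by 0.57 in GV1 (SE 0.15, adjusted p = 0.0370), 0.68 in GV2 (adjusted p = 0.0179) and 0.56 in GV3 (adjusted p = 0.0387), and its ratio was above 0 on 12 of 12 arrays. HSD17B2, which inactivates oestradiol, fell by 0.31, 0.29 and 0.23 in GV1, GV2 and GV3 (adjusted p = 0.0148, 0.0196 and 0.0443). Its signal was above background on 4 of 12 arrays in Cy5, at 2, 1 and 1 by stage, and on 11 of 12 in Cy3. Like HSD11B2 it passed the filter only through the GV0 channel. HSD11B1, which regenerates cortisol, fell in GV1 by 0.23 (SE 0.06, adjusted p = 0.0337). HSD11B1L, a relative of HSD11B1, fell in GV2 by 0.48 (adjusted p = 0.0226) and in GV3 by 0.58 (adjusted p = 0.00896). Median changes of the 29 were -0.02, -0.08 and -0.09.

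Among 18 genes of cholesterol supply 12 were measured, of which 3 rose in each stage and 1 fell in GV1. With the area block 5, 6 and 4 rose and 1, 2 and 2 fell. The shares over all genes are those given for the other enzymes, and the counts were not tested against them. SCARB1, the receptor that takes up cholesterol from high-density lipoprotein, rose in GV1 by 0.56 (SE 0.14, adjusted p = 0.0248) and measured 0.46 in GV2 (adjusted p = 0.0505) and 0.35 in GV3 (adjusted p = 0.114). NPC1 and NPC2, which export cholesterol from lysosomes, rose in all 3 stages, NPC1 by 0.78, 0.75 and 0.80 (adjusted p = 0.0457, 0.0498 and 0.0389) and NPC2 by 0.57, 0.58 and 0.40 (adjusted p = 0.00797, 0.00702 and 0.0331). ACBD3, a Golgi protein that binds the cholesterol-handling protein TSPO, rose in GV2 by 0.76 (adjusted p = 0.0351) and in GV3 by 0.84 (adjusted p = 0.0225). SOAT1, which stores cholesterol as esters, fell in GV1 by 0.40 (SE 0.08, adjusted p = 0.0140). The list's median was 0.12 in GV1, 0.18 in GV2 and 0.18 in GV3.

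Of 28 regulators 20 were measured, with 1 up and 3 down in GV1, 1 up and 2 down in GV2, and 1 up and 4 down in GV3. With the area block 2, 4 and 3 rose and 4, 3 and 4 fell. Again the shares over all genes are those given for the other enzymes, and no test was made against them. NR5A1, the nuclear receptor SF-1 that activates most genes of steroid synthesis, fell in GV1 by 0.37 (SE 0.09, adjusted p = 0.0292) and in GV3 by 0.50 (SE 0.09, adjusted p = 0.00687). In GV2 it measured -0.28 (adjusted p = 0.0744), and its ratio was below 0 on 12 of 12 arrays. NR0B1, the DAX-1 protein that represses NR5A1 activity, also fell, by 0.88 in GV1, 0.77 in GV2 and 1.16 in GV3 (SE 0.16 each), with adjusted p = 0.00731, 0.0125 and 0.00173. PGR, the progesterone receptor, rose by 0.96, 1.12 and 0.92, with adjusted p = 0.0377, 0.0198 and 0.0417.

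NR4A1, an immediate early nuclear receptor that activates steroidogenic promoters, fell in GV3 by 1.34 (SE 0.37, adjusted p = 0.0406). CEBPA, a factor of granulosa differentiation, is among the genes counted as lower in each stage, but its signal was above background on 0 of 12 arrays in Cy5 and on 5 of 12 in Cy3, so no fold is given. NR5A2, the relative of NR5A1 needed for ovulation in mice, measured -0.62, -0.41 and -0.29 and did not pass (adjusted p = 0.0793, 0.232 and 0.390). FSHR, the receptor through which follicle-stimulating hormone induces aromatase, measured 0.30, 0.40 and 0.15 and did not pass either (adjusted p = 0.281, 0.163 and 0.612). LHCGR, the luteinising hormone receptor of theca and luteinising granulosa cells, did not pass the filter on dim probes.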

How the data were processed

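Cumulus cell RNA of GV1, GV2 or GV3 (Cy5) was hybridised against GV0 RNA (Cy3) on 12 2-colour arrays, 4 areas on each of 3 slides. Pools held 10 complexes, and no label says that pools came from separate animals, so p-values measure the spread between pools. Per the file headers, deposited scanner tables hold unnormalised spot intensity (mean and median of each channel) and a flag of another kind, with a rule the authors do not state. The deposited series matrix holds log2 ratios that matched median signals after loess without background correction (r at least 0.99999 per array); its array medians run from -0.01 to 0.00, and its direction is stage over GV0.

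Flagged spots were removed. Mean signals were background-corrected (normexp, offset 50) and made into loess-normalised ratios (limma 3.58.1, R 4.3.3, statmod 1.5.0). Channel levels also had Aquantile normalisation between arrays. The filter kept 35891 of 43794 probes, those above background (2 SD over the mean of 153 negative controls) in either channel on 3 or more of a stage's 4 arrays. Of all probes 21790 carry 1 symbol and 22004 none; symbols were updated with RefSeq's gene table, with 14114 current, 982 renamed and 133 unmatched. The kept probe with the highest mean signal represented a gene.

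All 12 arrays entered 1 limma model with a coefficient per stage, and p-values were adjusted by Benjamini-Hochberg over all kept probes. GV0 was in Cy3 on every array, so a dye effect stays in ratios to GV0 and cancels between stages. Area numbers pair the arrays: ratio deviations of the same area correlated at 0.49 to 0.74 in 12 of 12 pairs, and Cy3 signals at 0.989 to 0.997, against 0.932 to 0.971 between areas. The 3 stages share these GV0 pools, so the 9 residual degrees of freedom overstate the information. The model was also run on simulated data with normal noise and a common correlation within areas. These data held no offset of dim signals, dye effect or outlying array, so that run does not bear on such limits.

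Members and gene lists were chosen with earlier results of these data known. Named were all members, genes of the 3 further lists that passed in any comparison plus NR5A1, NR5A2, FSHR, LHCGR and SCARB1, and for STAR, CYP11A1, HSD3B1 and CYP19A1 the 3 genes with the highest Pearson correlation of ratios; array-wide facts name marker genes besides. The correlation of HSD3B1 with CYP17A1 was singled out after its value was seen. Alternatives covered the block, the random effect, left-out arrays and areas, background, signal column, scaling, filters, flags, probe rule and the series matrix. Probe and promoter sequences were not used here.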

Additional observations from a re-analysis of the deposited data

Results flagged for a closer look

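Within groups of 4 values, 84 sets of member values were searched for a highest or lowest value far from its nearest neighbour. Far meant a gap, as a share of the range, over Dixon's 95% critical value. Of the 84 sets 4 were found, and chance gives about 1 in 20, so the count is near what chance gives. The sets are not independent, because probes of a gene, and ratios and levels, come from the same arrays. STAR's brightest probe had a Cy5 level of 11.66 on GV1 replicate 3, against 7.59 to 8.07 on the other GV1 arrays. Its second probe had a Cy5 level of 11.10 on the same array. In the GV0 pools the second STAR probe was highest in pool 2, at 8.03, against 6.53 to 6.56 in the other 3 pools. HSD3B1 had a ratio of 1.54 on GV2 replicate 4, against 0.49 to 0.60 on the other GV2 arrays.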

How the results depend on the processing

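Counts of members that passed against GV0 depended on the processing, and the cause was not tested. For GV1 and GV2 the count of 2 became 0 with flagged spots kept, with flagged spots kept in the normexp fit, with median spot signals, with the series matrix values, with only the arrays of that stage (0 probes passed after adjustment in limma, and 8486 in GV1, 7532 in GV2 and 8574 in GV3 had an unadjusted p under 0.05) and when a probe had to exceed background in Cy5 and in Cy3 on each array (7 members tested). For GV3 the count of 1 became 0 with the area as a random effect, median signals, the series matrix or only the arrays of that stage. It became 2 with flagged spots kept, with flagged spots kept in the normexp fit, with no background correction, with no filter and with scaling between arrays. The replicate block for the area number gave 4 in GV1, 3 in GV2 and 3 in GV3; it removes all spread shared by an area. Leaving out 1 array or 1 area gave 0 to 2 in GV1, 0 to 1 in GV2 and 0 to 1 in GV3. Probes that passed array-wide were 3957, 4300 and 4412 in GV1, GV2 and GV3, 166, 405 and 5270 with flagged spots kept, 281, 452 and 798 with median signals, 306, 509 and 758 with the series matrix, 1012, 1134 and 1731 with both channels above background, and 10746, 10827 and 10895 with the block. The 3 differences between stages gave 0 members under each of 25 alternatives, among them Cy5 levels alone, which were added after seeing the data. With the block the unadjusted p was under 0.05 for 1473, 2810 and 3797 probes in GV2 minus GV1, GV3 minus GV1 and GV3 minus GV2. No called change of a member turned its sign under any alternative run. Signal over background limits CYP17A1, HSD11B2 and the fainter STAR and CYP19A1 probes, which were below background in Cy5 on part of the arrays.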
